A study of Homo sapiens with 8 samples.

Results

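The 8 beta integrin genes of the human genome, ITGB1 to ITGB8, were examined for open chromatin in LX-2 cells. LX-2 is an immortalised human line derived from hepatic stellate cells, which lay down scar matrix in the injured liver, and all libraries came from this 1 line. The genes were taken by name, as 8 of 20149 protein-coding genes of the annotation, and each was read over its gene body with 50 kb on each side. The assay was ATAC-seq, in which a transposase inserts sequencing adapters where DNA is accessible, and each library is described by its own list of peaks. Cells were grown on polyacrylamide hydrogels coated with fibronectin, of 2 kPa (soft) or 40 kPa (stiff), and were taken after 2 days (D2) or 4 days (D4). Each matrix had 2 replicate libraries at each time, with no other treatment named. The study's methods call its sequencing replicates biological, but no source used here ties a library to a culture or a day, so p-values measure only the spread between these libraries.

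Integrins are receptors built of 1 alpha and 1 beta subunit that span the membrane and couple the extracellular matrix to the actin cytoskeleton. The beta subunit carries the short tail to which talin and kindlins bind, and these link the receptor to focal adhesions, where cells sense the stiffness of their surroundings. ITGB1 encodes the widely expressed subunit of fibronectin, collagen and laminin receptors. ITGB3, ITGB5, ITGB6 and ITGB8 encode partners of the alpha v subunit, of which beta 6 and beta 8 are known for activating latent TGF-beta, the main fibrogenic cytokine of the liver. ITGB4 encodes the hemidesmosome subunit of epithelia, and ITGB2 and ITGB7 encode subunits of leukocyte receptors.

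Overlapping peaks of the 8 lists (1 bp or more) were joined, and a joined region with peaks from at least 2 libraries was called a site. The windows of the 8 genes covered 1402.1 kb and held 562 peaks, of which 540 fell in 86 sites and 22 were seen in 1 library only. In all, the lists held 466883 peaks and 75501 sites. Sites are numbered within each gene from the farthest upstream to the farthest downstream. A site within 1 kb of any annotated start of the gene was called an own promoter, one near a start of another protein-coding gene a promoter of another gene, and the rest distal. By this rule 14 sites were own promoters, 17 were promoters of another gene and 55 were distal. Density ranged from 2.16 sites per 100 kb at ITGB8 to 8.79 at ITGB4, with a median of 6.87 for the 8 genes and of 3.95 for the same windows around all protein-coding genes.

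**Figure D1:**
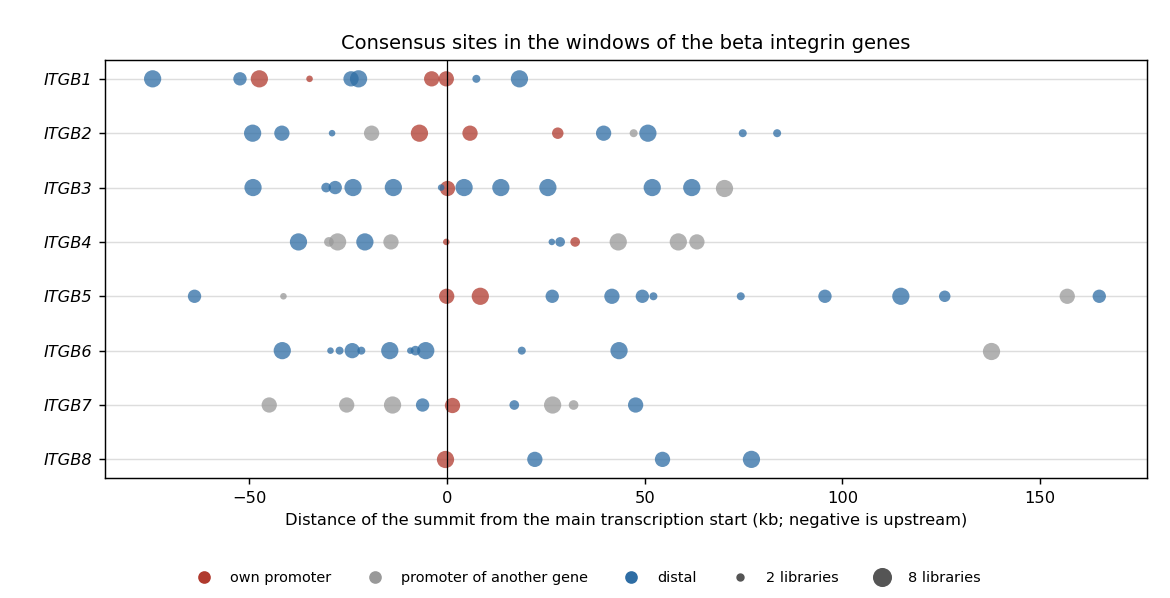
Each point is 1 of the 86 sites, placed by the distance in kb of its summit from the main transcription start of its gene (negative is upstream), coloured by kind and sized by the number of libraries with a peak. ITGB8 had 4 sites and ITGB5 had 14, and no red point, an own promoter, lies on the line of ITGB6.

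Peaks were ranked within each list by fold enrichment, which sets the pileup at the summit against that library's local background. The rank is given as a percentile of that list, where 100 is the highest peak. Values of different lists are not on 1 scale, so percentiles were compared rather than fold enrichments. A percentile still moves with the length of its list: over the 24246 sites that all 8 lists share, its median was 58.7 in D2 soft replicate 1, the shortest list, and 72.1 to 76.9 in the others, so the same site tends to stand lower in that library. Values are given in the order D2 replicate 1, D2 replicate 2, D4 replicate 1 and D4 replicate 2 for soft and for stiff libraries. The sequence around the summit is shown for 1 or 2 sites of each gene but ITGB4 that the results below turn on, 201 bases of GRCh37 (hg19) on the plus strand, centred on the summit. Of these genes ITGB3 and ITGB8 are read from the plus strand and the other 5 from the minus strand. The summits of these stretches lie in introns of the transcript with the main start or outside that transcript. This does not cover exons of other transcripts or genes. Capitals mark TGACTCA or TGAGTCA (AP-1), GGAATG (TEAD) or GGGCGG (GC box) on either strand, so that a motif on the minus strand is shown as its complement read on the plus strand.

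Sites of the alpha v partners are shown first, high-ranked ones and the start of ITGB8, at chr17:45317488-45317688 and chr17:45344738-45344938 for ITGB3, at chr3:124597752-124597952 and chr3:124579512-124579712 for ITGB5, at chr2:161071162-161071362 for ITGB6 and at chr7:20369781-20369981 for ITGB8.
ITGB3 site 5: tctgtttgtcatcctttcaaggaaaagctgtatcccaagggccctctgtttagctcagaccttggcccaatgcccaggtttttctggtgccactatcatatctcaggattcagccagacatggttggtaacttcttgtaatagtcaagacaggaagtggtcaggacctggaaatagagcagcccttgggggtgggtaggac
ITGB3 site 9: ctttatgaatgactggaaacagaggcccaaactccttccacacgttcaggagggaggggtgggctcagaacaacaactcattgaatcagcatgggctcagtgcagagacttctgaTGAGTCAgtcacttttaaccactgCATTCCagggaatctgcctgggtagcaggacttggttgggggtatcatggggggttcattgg
ITGB5 site 4: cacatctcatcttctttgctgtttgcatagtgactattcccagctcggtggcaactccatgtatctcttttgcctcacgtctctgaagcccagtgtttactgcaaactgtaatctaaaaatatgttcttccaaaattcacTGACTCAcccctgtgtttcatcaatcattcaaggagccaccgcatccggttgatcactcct
ITGB5 site 5: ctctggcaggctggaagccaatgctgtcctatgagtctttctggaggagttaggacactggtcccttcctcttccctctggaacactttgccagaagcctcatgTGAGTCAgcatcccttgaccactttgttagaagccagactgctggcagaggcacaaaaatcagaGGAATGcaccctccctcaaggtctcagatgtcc
ITGB6 site 6: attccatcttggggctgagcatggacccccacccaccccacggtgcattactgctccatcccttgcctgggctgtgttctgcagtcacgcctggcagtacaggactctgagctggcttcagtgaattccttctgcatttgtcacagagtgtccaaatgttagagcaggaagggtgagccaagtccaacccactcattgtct
ITGB8 site 1: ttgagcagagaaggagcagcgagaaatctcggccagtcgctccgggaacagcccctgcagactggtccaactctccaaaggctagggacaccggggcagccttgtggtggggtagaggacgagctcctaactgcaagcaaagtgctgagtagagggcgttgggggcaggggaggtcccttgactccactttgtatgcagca

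For the other subunits, the strongest distal sites of ITGB1 (chr10:33269474-33269674) and ITGB2 (chr21:46382520-46382720) are shown, with the promoter site of ITGB7 (chr12:53599641-53599841).
ITGB1 site 6: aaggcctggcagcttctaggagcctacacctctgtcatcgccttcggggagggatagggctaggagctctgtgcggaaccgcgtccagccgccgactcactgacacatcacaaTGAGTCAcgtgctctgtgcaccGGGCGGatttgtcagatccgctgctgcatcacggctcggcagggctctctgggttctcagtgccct
ITGB2 site 2: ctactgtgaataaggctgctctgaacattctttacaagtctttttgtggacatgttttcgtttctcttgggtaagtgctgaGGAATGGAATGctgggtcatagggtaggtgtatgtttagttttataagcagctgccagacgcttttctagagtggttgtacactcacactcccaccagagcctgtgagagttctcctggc
ITGB7 site 5: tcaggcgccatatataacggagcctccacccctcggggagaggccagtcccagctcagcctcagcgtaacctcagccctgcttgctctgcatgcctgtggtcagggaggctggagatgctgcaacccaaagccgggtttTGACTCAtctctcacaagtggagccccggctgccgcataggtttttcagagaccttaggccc

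The stretch of ITGB3 site 5, the highest ranked of all 86 sites, held none of these letters, nor did those of ITGB6 site 6 and ITGB8 site 1. ITGB3 site 9 and ITGB5 site 5 held an AP-1 and a TEAD motif together. ITGB2 site 2 held 2 copies of the TEAD letters that overlap by 1 base. Over the 86 sites, 21 (24.4%) held the AP-1 letters within 100 bp of the summit, against 30.2% of all sites. TEAD letters stood in 17 (19.8%), against 19.1%, and GC boxes in 16 (18.6%), against 16.0%. Of the 55 distal sites 18 (32.7%) held AP-1 letters, against 35.8% of all sites that were at no protein-coding promoter. AP-1 letters stood in 6 of the 14 sites of ITGB5 and in 5 of the 12 of ITGB6, and in 1 of the 12 of ITGB4. Of the 14 own promoters 5 (35.7%) held a GC box, against 48.4% of all promoter sites. The TEAD letters can share end bases with either of the other motifs, and a match here is a description of the letters and no evidence that a factor was bound.

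The lists differed in depth, and this touches every count of peaks below. D2 soft replicate 1 held 29789 peaks and the other lists 55754 to 72840. The lowest local background in a list, worked out from the fold enrichment and the p-value, was 0.229 fragments in D2 soft replicate 1 and 0.383 to 0.821 in the others. Rank correlations of fold enrichment over shared sites were 0.584 to 0.785 within groups and 0.525 to 0.780 between groups. As a check of the cell type, a promoter peak was present in every library at 4 of 10 stellate cell and fibroblast markers (COL1A1, PDGFRB, VIM and ACTA2) and in no library at DES and LRAT. The other 4, COL1A2 (7 libraries), COL3A1 and HAND2 (6 each) and THY1 (5), all lacked one in D2 soft replicate 1. Of 7 leukocyte markers, CSF1R had one in every library, LAPTM5 in 7 and CD53 in 5, and PTPRC, SPI1 and CD3E in none. Of 7 epithelial and hepatocyte markers EPCAM had one in 6 libraries and CDH1 in 5, and the other 5 had none. The 3 annotated endothelial markers, KDR and TIE1 (7 libraries each) and CDH5 (4), also had peaks, none of them in D2 soft replicate 1.

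**Figure D2:**
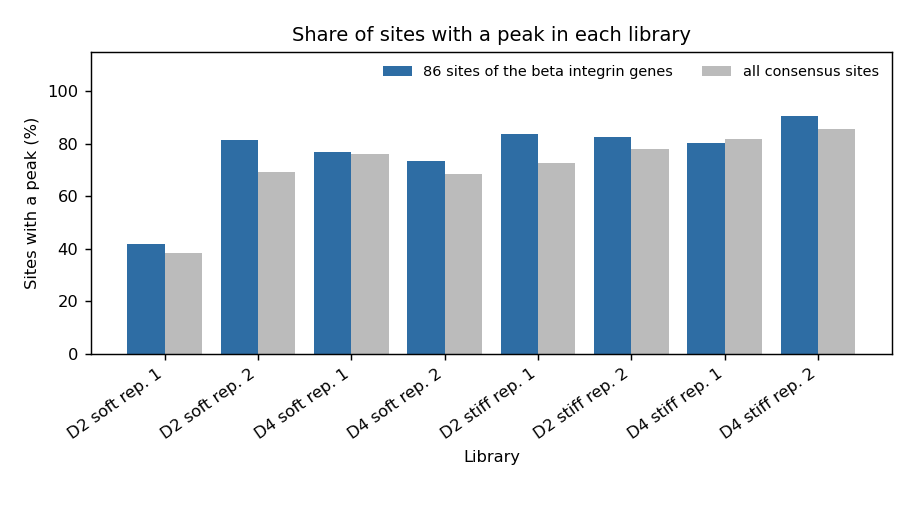
Bars give the percent of the 86 sites of the beta integrin genes (blue) and of all 75501 sites (grey) that had a peak in each library. D2 soft replicate 1 stands lowest at 41.9% of the 86 sites, and the other libraries lie between 73.3% and 90.7%.

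Of the 86 sites, 36 had a peak in D2 soft replicate 1 and 63 to 78 in the other libraries. A peak in every library was found at 32 sites (37.2%), against 32.1% of all sites, and in at least 7 libraries at 52 (60.5%), against 49.7%. Of these 32 sites, 4 were own promoters, 7 were promoters of another gene and 21 were distal. A further 20 sites (23.3%, against 15.0% of all sites) had a peak in every library but D2 soft replicate 1. ITGB3 had 9 of its 13 sites in every library, ITGB4 5 of 12, ITGB6 5 of 12, ITGB1 4 of 10 and ITGB2 3 of 12. ITGB5, ITGB7 and ITGB8 had 2 each, of 14, 9 and 4 sites. The median over the 86 sites of the mean percentile was 44.9, and it was 43.7 over all sites. Mean percentiles above 80 were found at 11 of the 86 sites (12.8%) and at 12.6% of all sites. Of these 11, ITGB3 held 5, ITGB4, ITGB5 and ITGB7 held 2 each, and ITGB1, ITGB2, ITGB6 and ITGB8 held 0.

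**Figure D3:**
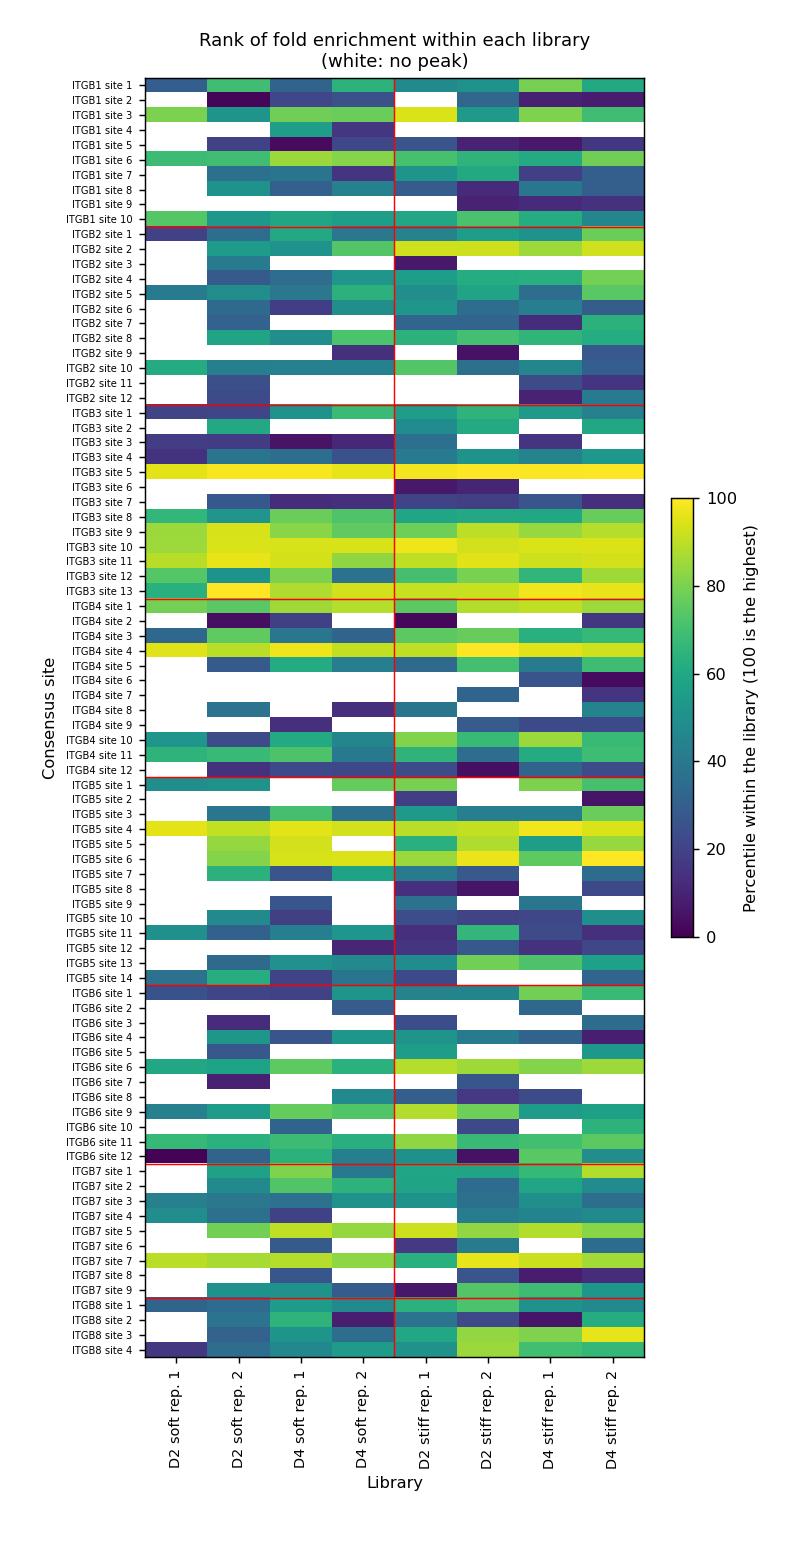
Rows are the 86 sites grouped by gene from upstream to downstream and columns are the libraries, soft on the left. Colour is the percentile of fold enrichment within the library (100 is the highest) and white is no peak. The row of ITGB3 site 5 is between 96.0 and 99.8 throughout, and the column of D2 soft replicate 1 has the most white cells, 50 of 163.

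An own promoter peak was found in every library for 4 of the 8 genes, ITGB1, ITGB2, ITGB5 and ITGB8, against 48.2% of all protein-coding genes. ITGB3 and ITGB7 had one in all but D2 soft replicate 1, ITGB4 had one in 4 libraries, and ITGB6 had none. At the main annotated start, a site with peaks in all 8 libraries was found for ITGB8 alone. The sites at the main starts of ITGB1, ITGB3, ITGB5 and ITGB7 lacked a peak in D2 soft replicate 1 only. At ITGB7 the peaks themselves came within 1 kb of the main start in 6 libraries. The main start of ITGB4 had its site in 2 libraries, and those of ITGB2 and ITGB6 had none in any. By the mean percentile of the best promoter site, the order was ITGB5 (93.5), ITGB7 (85.7), ITGB1 (73.2), ITGB2 (51.6), ITGB8 (50.5), ITGB4 (21.8) and ITGB3 (19.1). Neighbours in this order overlapped in their libraries, except that the lowest value of ITGB8 (32.2) was above the highest of ITGB4 (28.6). The means of ITGB7, ITGB4 and ITGB3 leave out the libraries without a peak.

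ITGB1 was open at several of its alternative starts. The gene runs from 33176201 to 33294720 on chromosome 10, minus strand. The best promoter site, ITGB1 site 3 (chr10:33293861-33295115), lay 47.5 kb upstream of the main start, at the start of a long transcript. Its percentiles were 80.4, 51.9, 78.4 and 77.1 in soft and 94.3, 53.9, 80.6 and 69.2 in stiff libraries. Both matrices ranged from about the middle of the list to its upper part, and the groups overlapped. The site at the main start, ITGB1 site 8, ranked lower, with no peak in D2 soft replicate 1 and 50.9, 30.8 and 43.5 in the other soft libraries and 29.2, 12.2, 39.4 and 29.9 in stiff. It held a TEAD motif and a GC box. Between these starts, ITGB1 site 6 stood 22.4 kb upstream of the main start, near a start of the noncoding divergent transcript ITGB1-DT, at 68.6, 69.2, 84.97 and 81.7 in soft and 70.7, 64.9, 61.0 and 78.3 in stiff libraries. Its D4 soft values were both above its D4 stiff values, and the day 2 values overlapped. An intronic site 18.3 kb downstream of the main start, ITGB1 site 10, had 45.6 to 73.6 in the 8 libraries. ITGB1 site 4, at a start 34.8 kb upstream, had peaks in both D4 soft libraries alone (55.8 and 15.9), and ITGB1 site 9, an intronic site, had peaks in D2 stiff replicate 2 (9.85) and in both D4 stiff libraries (12.3 and 14.4). Each of these was a low or unequal pair of peaks, with summit pileups of 6 to 12 fragments. The gene closest to ITGB1 in its best promoter percentiles over the 8 libraries was URM1, with a mean absolute difference of 4.44 points among 9595 genes compared.

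Among the alpha v partners, ITGB3 had the most highly ranked chromatin, away from its start. ITGB3 site 5 (chr17:45317164-45318073), 13.6 kb upstream of the start, had 96.0, 99.2, 99.0 and 96.2 in soft and 98.4, 99.8, 99.3 and 99.6 in stiff libraries. It was thus among the highest peaks of each list, with fold enrichments of 11.0 to 18.2 and summit pileups of 33 to 129 fragments. Ranked by the p-value in place of fold enrichment, its mean percentile was 99.0, against 98.4. Inside the gene, ITGB3 site 9 (85.1, 93.8, 82.2 and 75.6 in soft and 78.1, 89.98, 84.7 and 88.8 in stiff) lay in an intron 13.6 kb downstream of the start. ITGB3 site 10, 25.5 kb downstream, had 85.2 to 94.2 in soft and 93.3 to 97.4 in stiff libraries. ITGB3 site 11, 51.9 kb downstream, had 83.4 to 96.6 in soft and 90.3 to 95.6 in stiff. All 3 overlapped between the matrices over both days, though on day 4 both stiff values of sites 9 and 10 were above both soft values. By ranks among the shared sites, this held on day 4 for site 9 and not for site 10. The site at the start itself, ITGB3 site 7, stood low in every library that had it, at 27.4, 12.95 and 13.8 in soft and 20.4, 19.1, 26.4 and 13.5 in stiff, with 3 GC boxes within 100 bp of its summit. ITGB3 site 4, 23.8 kb upstream, was the 1 site of ITGB3 with a peak in every library whose matrices did not overlap, with 14.6, 38.9, 36.0 and 25.2 in soft and 41.5, 51.6, 44.8 and 53.4 in stiff. ITGB3 site 6, 1.5 kb upstream, had peaks in both D2 stiff libraries alone, at 7.02 and 10.2.

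ITGB5 held the highest own promoter site of the 8 genes. ITGB5 site 4 (chr3:124597191-124598315) lay in an intron 8.4 kb downstream of the main start, at an internal annotated start. Its percentiles were 96.0, 90.8, 95.9 and 93.1 in soft and 89.5, 90.8, 97.7 and 94.2 in stiff libraries. On day 2 both soft values were above both stiff values, and on day 4 they overlapped. The site at the main start, ITGB5 site 3, had 39.2, 70.5 and 36.96 in the soft libraries with a peak and 54.1, 42.8, 43.3 and 77.2 in stiff. Further in, ITGB5 site 6, 41.7 kb downstream in an intron, had 81.6, 94.03 and 94.9 in soft and 84.99, 97.2, 75.4 and 99.6 in stiff, with no peak in D2 soft replicate 1. ITGB5 site 5, with its AP-1 and TEAD letters, had 84.1 and 93.2 in 2 soft libraries and 63.6, 88.3, 55.7 and 84.7 in stiff. These 3 intronic sites were above the middle of the list in every library that had them. Peaks of D2 stiff libraries with none in D2 soft were found at ITGB5 site 8 (13.4 and 5.84) and ITGB5 site 12 (15.6 and 27.4), and both sites also had a D4 stiff peak. ITGB5 site 12 had a peak in D4 soft replicate 2 as well, at 10.9. ATP5F1A was the gene whose best promoter percentiles were closest to those of ITGB5, with a mean absolute difference of 1.66 points.

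ITGB6 had no site at any of its own starts. Of its 12 sites 11 were distal and 1 was a promoter of PLA2R1. ITGB6 site 6 (chr2:161070953-161071488), 14.5 kb upstream, had 59.5, 58.0, 75.1 and 64.0 in soft and 89.0, 85.9, 81.3 and 85.3 in stiff libraries. All 4 stiff values were above all 4 soft values. ITGB6 site 1, 41.7 kb upstream, had 25.1, 20.8, 19.5 and 51.9 in soft and 44.8, 45.3, 78.6 and 67.7 in stiff, so that the stiff values were higher within each day and overlapped over both. ITGB6 site 9, 5.4 kb upstream, differed in order between the days, with soft values of 43.5, 55.4, 76.5 and 72.9 and stiff values of 88.5, 77.8, 54.9 and 56.9. ITGB6 site 11, in an intron, had 62.7 to 68.6 in soft and 67.2 to 83.2 in stiff libraries. By percentile its stiff values were higher within each day and overlapped the soft values over both. By ranks among the shared sites they overlapped within each day as well. ITGB6 site 8 had peaks in both D2 stiff libraries (30.3 and 16.6) and in neither D2 soft library, and also in 1 library of each D4 group.

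ITGB8, with 4 sites in all, was open at its main start in every library. ITGB8 site 1 (chr7:20369333-20370849), which also lies at the start of the antisense gene ITGB8-AS1, had 32.2, 34.95, 55.0 and 47.4 in soft and 63.8, 71.6, 51.5 and 47.7 in stiff libraries. The stiff values were higher on day 2 and overlapped the soft values on day 4. By ranks among the shared sites, both soft values were above both stiff values on day 4. In introns, ITGB8 site 3, 54.5 kb downstream, had 31.3, 51.6 and 36.0 in soft libraries and 59.4, 83.9, 80.7 and 96.2 in stiff, with no peak in D2 soft replicate 1. Each stiff value was above each soft value. ITGB8 site 4, 77.0 kb downstream, had 16.2, 35.6, 46.5 and 55.1 in soft and 51.3, 85.1, 69.8 and 66.6 in stiff, and only the lowest stiff value fell among the soft values. ITGB8 site 2 had 8.34 to 64.9 in soft and 5.66 to 62.0 in stiff libraries. HIRIP3 was closest to ITGB8 in its best promoter percentiles, at a mean absolute difference of 5.35 points.

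ITGB4 had little open chromatin at its own starts. ITGB4 site 6, 0.2 kb upstream of the main start, had peaks in both D4 stiff libraries alone, at 25.99 and 2.97. The summit pileups there were 14 and 7 fragments, in the same order. ITGB4 site 9, at an internal start, had 13.5 in D4 soft replicate 1 and 28.6, 22.4 and 22.5 in 3 stiff libraries. The high sites of the window stood in a neighbouring gene or beyond. ITGB4 site 4, 20.8 kb upstream in SAP30BP, had 94.95, 89.7, 97.3 and 90.8 in soft and 90.6, 99.8, 95.5 and 92.7 in stiff libraries, and overlapped. ITGB4 site 10, a promoter site of the galactokinase gene GALK1, had 52.0, 23.0, 61.3 and 45.6 in soft and 80.9, 67.8, 85.1 and 67.3 in stiff, with all stiff values above all soft values.

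Of the leukocyte subunits, ITGB2 had no peak at its main start but peaks at alternative starts. ITGB2 site 5 (chr21:46347373-46349176), 7.0 kb upstream of the main start and shared with a start of the antisense gene ITGB2-AS1, had 41.3, 49.0, 39.8 and 64.3 in soft and 49.6, 58.5, 36.1 and 74.6 in stiff libraries. The matrices overlapped over both days, though on day 2 both stiff values were above both soft values. By ranks among the shared sites they overlapped on day 2 as well. ITGB2 site 2, 41.8 kb upstream, had 55.4, 51.5 and 73.2 in soft and 92.7, 92.5, 85.5 and 92.7 in stiff, with no peak in D2 soft replicate 1 and each stiff value above each soft value. ITGB2 sites 7, 11 and 12 had peaks in both D4 stiff libraries and in neither D4 soft library, at 13.1 and 64.4, at 23.1 and 15.2, and at 9.61 and 41.2. All 3 also had a peak in D2 soft replicate 2. CFAP54 was closest to ITGB2 in its best promoter percentiles, at a mean absolute difference of 5.51 points.

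ITGB7 had a high site beside its start. ITGB7 site 5 (chr12:53599458-53600400), whose summit lay 1.3 kb downstream in an intron, had 78.8, 90.5 and 84.0 in soft libraries and 92.3, 83.8, 88.5 and 82.1 in stiff, with no peak in D2 soft replicate 1. It held AP-1 letters and no GC box. Its distal sites were lower, the best being ITGB7 site 9, with 51.2, 51.1 and 29.1 in soft and 6.25, 73.2, 69.1 and 52.9 in stiff libraries. ITGB7 site 6, 17.0 kb downstream of the start, had peaks in both D2 stiff libraries (16.5 and 41.2) and in neither D2 soft library, and also in 1 library of each D4 group. Promoter sites of neighbouring genes lay in the same window, among them ITGB7 site 7 at CSAD and ZNF740, with 63.6 to 96.4 over the 8 libraries.

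**Figure D4:**
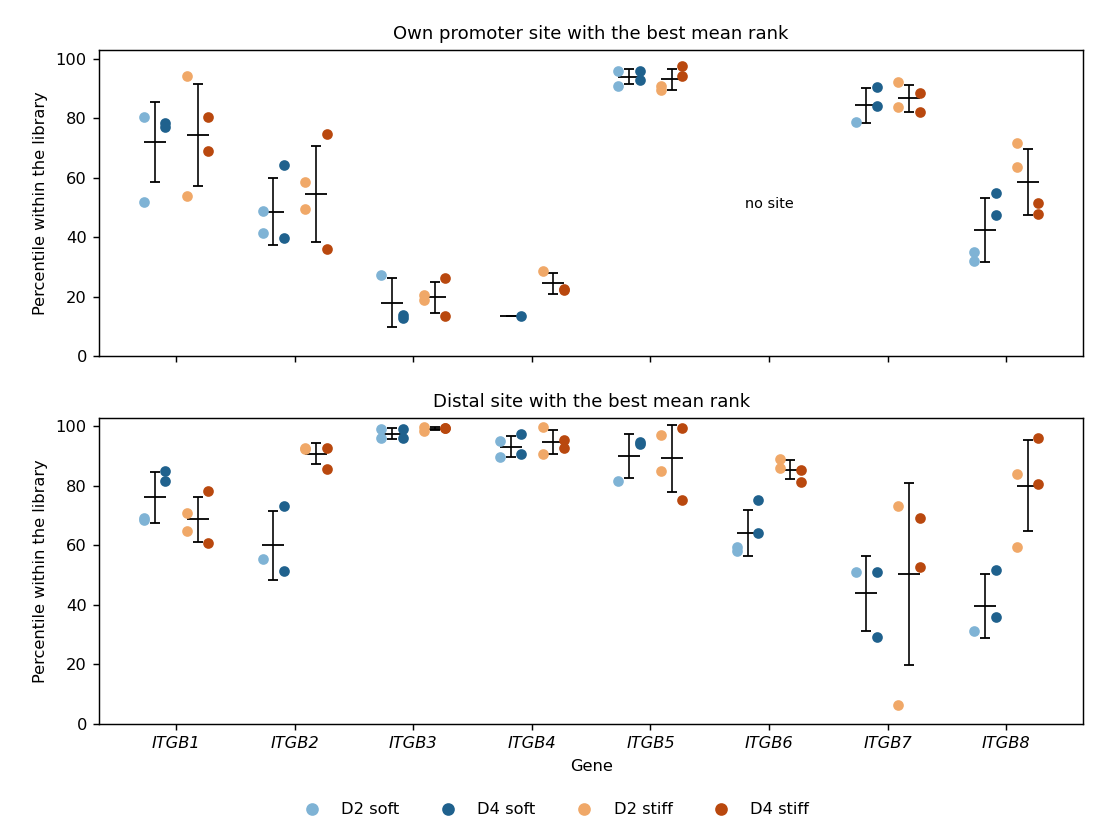
Points are libraries, coloured by group, and give the percentile of fold enrichment within the library at the best own promoter site (top) and the best distal site (bottom) of each gene. Black bars are the mean and SD of the soft (left) and stiff (right) libraries that had a peak. Soft and stiff points overlap at every promoter drawn with peaks in at least 2 libraries of each matrix. Stiff points are all above soft points at the distal site of ITGB6, as at 3.62% of all sites seen in every library. They are also above at the distal sites of ITGB2 and ITGB8, where D2 soft replicate 1 had no peak. For such sites no share of all sites was worked out.

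The comparison of stiff with soft matrix asked which sites of these genes were open on 1 matrix only or ranked higher there. No site of the 86 had a peak in all 4 stiff and in no soft library, and 0.85% of all sites did. None had one in all 4 soft and no stiff library, against 0.0172%. On day 2, 5 of the 86 had peaks in both stiff and no soft library, against 7.45% of all sites, and 0 the reverse, against 0.391%. These 5 were ITGB3 site 6, ITGB5 sites 8 and 12, ITGB6 site 8 and ITGB7 site 6. The number was 30 without D2 soft replicate 2 and 10 without D2 stiff replicate 1. Without D2 soft replicate 2 the shortest list was the only D2 soft list. On day 4, 5 of the 86 were found in both stiff and no soft library (6.72% of all sites), namely ITGB1 site 9, ITGB2 sites 7, 11 and 12 and ITGB4 site 6. The number was 10 without D4 soft replicate 1 and 10 without D4 stiff replicate 1. With a library left out no share of all sites was worked out for these counts, so they cannot be judged against one. ITGB1 site 4 was the 1 site found in both D4 soft and no D4 stiff library (1.31% of all sites). At these 11 sites the summit pileups had a median of 10.5 fragments, against 26 at the 32 sites seen in every library. The number of libraries with a peak was larger on stiff at 42 of the 86 sites (47.5% of all sites) and larger on soft at 3 (6.98%). Stiff lists held 59277 to 72840 peaks and soft lists 29789 to 63272, and the counts changed with list length. With every list shortened to 29789 peaks, 2 of 55 sites were stiff-only and 2 soft-only on day 2, against 4.06% and 3.24% of all 38346 sites, and 2 and 0 on day 4, against 2.996% and 2.81%.

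Between the days, 1 site of the 86 had peaks in both D4 soft and no D2 soft library (5.79% of all sites), ITGB1 site 4, and 0 the reverse (0.403%). On stiff, 3 had peaks in both D4 and no D2 library (5.35% of all sites), and 1 had the reverse (1.41%). ITGB4 site 6, at the main start, was among the 3, together with ITGB2 sites 11 and 12, and ITGB3 site 6 was the 1 of the reverse.

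Ranks could be compared at the 32 sites seen in every library. A rank does not tell apart fewer cells with an open site from less access per cell. All 4 stiff percentiles were above all 4 soft percentiles at 3 sites (3.62% of all 24246 such sites), which were ITGB3 site 4, ITGB4 site 10 and ITGB6 site 6. None had the reverse (0.874%). On day 2 both stiff values were above both soft values at 11 of the 32 (25.6%) and both soft values above at 1, ITGB5 site 4 (9.29%). On day 4 the numbers were 11 (23.8%) and 3 (15.2%), the 3 being ITGB1 site 6, ITGB5 site 11 and ITGB6 site 9. These counts use percentiles of whole lists, which stand lower in D2 soft replicate 1. With ranks taken among the 24246 sites only, an alternative chosen after seeing the data, all 4 stiff values were above all 4 soft values at 1 of the 32, ITGB6 site 6 (1.88% of all), and none had the reverse (2.12%). On day 2 the numbers were then 8 (16.4%) and 3 (17.4%), and on day 4 they were 9 (18.2%) and 4 (20.7%). Stiff above soft was lost on day 2 at ITGB2 site 5, ITGB4 site 10 and ITGB6 site 11. On day 4 it was lost at ITGB3 site 10 and ITGB6 site 11. Soft above stiff was added at ITGB3 site 9 and ITGB4 site 11 on day 2 and at ITGB8 site 1 on day 4. By these ranks ITGB3 site 9, ITGB6 site 9 and ITGB8 site 1 changed order between the days.

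For a test, ranks of fold enrichment among these 24246 sites, taken library by library, were turned into normal scores and fitted with limma, with Benjamini-Hochberg adjustment over all sites. None of the 32 sites was called in any contrast. For stiff against soft over both days 1 site of all was higher (0.00412%) and 1 lower (0.00412%), and at an unadjusted p under 0.05 there were 4 of the 32 sites, against 7.72% of all. These 4 were ITGB4 site 10 (0.86, SE 0.37), ITGB8 site 4 (0.83, SE 0.35), ITGB6 site 1 (0.82, SE 0.36) and ITGB5 site 11 (-0.84, SE 0.40), in units of the normal score, with adjusted p of 0.615, 0.607, 0.615 and 0.637 in limma. For day 2, 1 site of all was higher (0.00412%) and 0 lower (0.0%), and 2 of the 32 had an unadjusted p under 0.05 (7.65% of all). For day 4, 2 sites of all were higher (0.00825%) and 0 lower (0.0%), and 2 of the 32 had an unadjusted p under 0.05 (5.35%). The lowest adjusted p of the 32 sites was 0.581 for day 2 and 0.921 for day 4. ITGB3 site 5 differed by 0.41 (SE 0.35) over both days and ITGB5 site 4 by -0.17 (SE 0.34), with adjusted p of 0.808 and 0.935 in limma.

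The interaction of matrix and day was called at 0 of the 32 sites and at 0 of all 24246 (0.0% in each direction), with 2 of the 32 and 5.27% of all at an unadjusted p under 0.05. ITGB6 site 9 had the largest of the 32 interactions in size, -1.76 (SE 0.67), with an adjusted p of 0.920 in limma. Day 4 against day 2 gave 0 calls among the 32 and 0 of all (0.0%), with 2 of the 32 and 6.91% of all at an unadjusted p under 0.05. ITGB6 site 12, at PLA2R1, was the higher of these on day 4, by 1.29 (SE 0.42), with an adjusted p of 0.602 in limma. Its percentiles were 0.99 to 50.4 on day 2 and 43.2 to 74.2 on day 4, and so overlapped. The values of D2 soft replicate 1 (0.99) and D2 stiff replicate 2 (5.02) rested on summit pileups of 3 and 5 fragments. ITGB2 site 2 and ITGB8 site 3 lacked a peak in D2 soft replicate 1 and so were outside this fit. When all 75501 sites were fitted with a library without a peak at the lowest rank, they differed by 1.17 (SE 0.30) and 1.13 (SE 0.30) between stiff and soft, with adjusted p of 0.268 and 0.279 in limma. That fit ties all sites without a peak in a library at the lowest rank of that library. The score of this tied rank is higher in a library with fewer peaks. D2 soft replicate 1 had a peak at 38.3% of all sites and D4 stiff replicate 2 at 85.8%. Differences in this fit therefore also depend on list length. In it 5 of the 86 sites had an unadjusted p under 0.05, against 8.76% of all sites. Of these 5, 3 were higher and 2 lower on stiff. The 2 lower were ITGB5 site 14 (-1.04, SE 0.32) and ITGB1 site 4 (-0.91, SE 0.28), with adjusted p of 0.378 and 0.370 in limma, and the third higher one was ITGB2 site 4 (0.61, SE 0.27), with an adjusted p of 0.543.

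**Figure D5:**
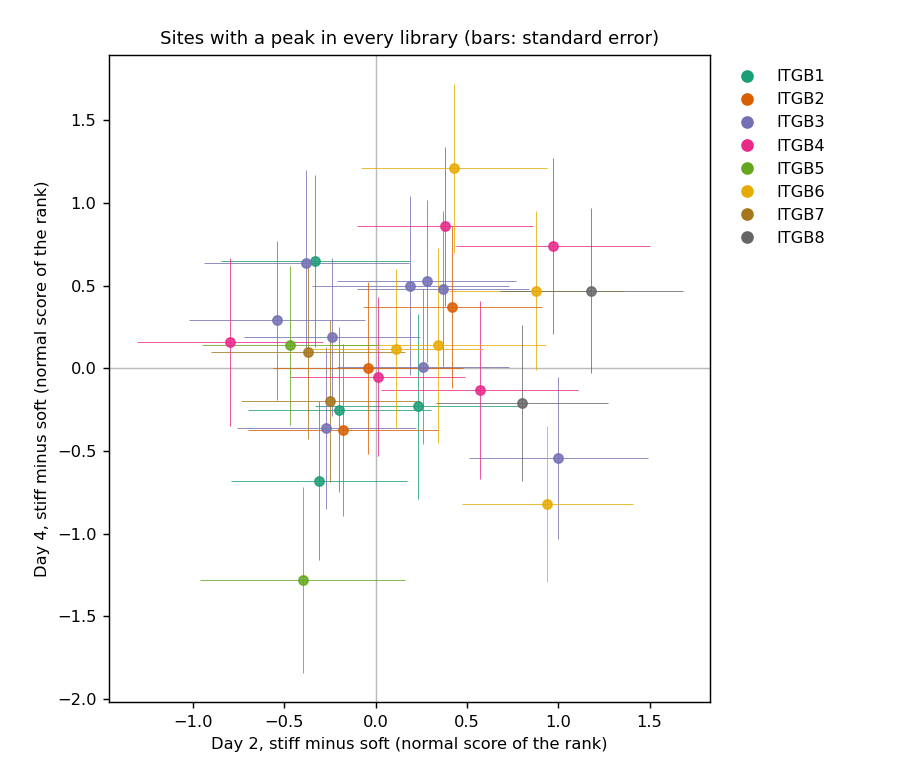
Each point is 1 of the 32 sites seen in every library, coloured by gene, and gives stiff minus soft in normal scores of the rank on day 2 (horizontal) and day 4 (vertical), with standard errors as bars. ITGB8 site 4 is farthest right at 1.18 and ITGB5 site 11 lowest at -1.28, and ITGB6 site 9 lies at the lower right with 0.94 and -0.82.

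For promoter levels, stiff minus soft in percentile points was 2.55 for ITGB1, 6.09 for ITGB2, 1.79 for ITGB3, -0.89 for ITGB5, 2.23 for ITGB7 and 16.3 for ITGB8. The SD of the soft and of the stiff libraries was 10.7 and 11.0 for ITGB8, 13.5 and 17.2 for ITGB1, and 11.2 and 16.1 for ITGB2. ITGB8 had the largest difference of these 6, at 16.3 against a pooled SD of 10.9. With lists of equal length it was 9.29, against an SD of 13.3. The limma row of ITGB8 site 1 was 0.29 (SE 0.34), with an adjusted p of 0.869. By day it was 0.80 (SE 0.47) on day 2 and -0.21 (SE 0.47) on day 4. ITGB4 had a promoter peak in 1 soft library only and ITGB6 in none, so they have no such value.

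The partners and linkers of the beta subunits were read in the same way at their promoters. Of 18 alpha integrin genes, 5 had a promoter peak in every library (27.8%), against 48.2% of all protein-coding genes, and 4 had none in any. The 5 were ITGA1 and ITGA2 (collagen receptor subunits), ITGA3 (laminin), ITGAV (the partner of beta 3, 5, 6 and 8) and ITGAX. The 4 without a peak were ITGA8, ITGA10, ITGAD and ITGAM. ITGA5, the fibronectin receptor subunit, and ITGA2B, ITGA4, ITGA6, ITGA7 and ITGAE lacked a peak in D2 soft replicate 1 only, so that without this library the number was 11 of 18 (61.1%), against 59.4% of all protein-coding genes. Of 27 genes of proteins that bind the beta tail or link it to actin, 20 had a promoter peak in every library (74.1%), among them both talins (TLN1 and TLN2), kindlin-2 (FERMT2), ILK, vinculin (VCL) and paxillin (PXN), and 1, PARVG, had none. Without D2 soft replicate 1 the number was 22 (81.5%), and for the beta integrins themselves it was 6 of 8. In the limma fit 7 promoter sites of 5 alpha integrin genes and 27 of 20 linker genes were tested, and 0 were called higher or lower in any contrast. For stiff against soft the unadjusted p was under 0.05 at 0 of the 7 and 4 of the 27, against 7.72% of all sites. On day 2 the numbers were 2 and 2 (7.65% of all), and on day 4 they were 0 and 0 (5.35%). The interaction gave 1 and 1 (5.27%), and day 4 against day 2 gave 1 and 0 (6.91%). The median difference of stiff against soft over both days was -0.38 for the 7 and 0.08 for the 27, against -0.02 for all sites.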

How the data were processed

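ATAC-seq libraries of LX-2 cells were described by 8 peak lists, 1 per library. The authors trimmed reads with Trim Galore, mapped them to hg19 with Bowtie2 (2.4.1 in the submitters' processing notes) and called peaks per library with MACS2 at q up to 0.05. Read filters and insertion offsets were not given in the sources used here. The lists deposited by the authors hold fold enrichment (a ratio with a pseudocount of 1), −log10 p and −log10 q values, a score that was not used further, and the summit offset. Read totals were not used, so depth was judged by peak number and by the background that solved both fold enrichment and p for at least 99.996% of peaks.

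Sites were annotated with GENCODE release 44 on GRCh37. Percentiles were mid-ranks within a list. Normal scores were fitted with limma 3.58.1 (lmFit and eBayes, 4 group means, R 4.3.3) and called at an adjusted p under 0.05. The fit had first been run on simulated data. These held sampling noise alone, with no further spread between replicates, so they do not show which changes the fit could call here. The study's count-based test was not repeated, since the lists hold no counts per site. Named by rule were the best own promoter and best distal site of each gene by mean rank and sites of 1 group only, and other sites were chosen after their values were seen. The members and gene lists were chosen with earlier results of these data known. Alternatives were lists of equal length, q up to 0.01, ranks of −log10 p, windows of 10 kb, promoters of 500 bp, a summit within 150 bp, all sites, libraries of 1 day, a replicate block and leaving out each library.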

Additional observations from a re-analysis of the deposited data

Results flagged for a closer look

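In 76 groups of 4 soft or 4 stiff libraries, the highest or lowest library stood far from the other 3 in 6, and chance gives about 1 in 20. At ITGB1 site 3, D2 soft replicate 2 was at percentile 51.87 and the next soft library at 77.11. At ITGB2 site 2, D4 stiff replicate 1 was at 85.52, with the next stiff library at 92.53. At ITGB2 site 10, D2 soft replicate 1 was at 61.46, with the next soft library at 43.85. At ITGB3 site 8, D4 stiff replicate 2 was at 76.95, with the next stiff library at 60.21. At ITGB3 site 10, D2 soft replicate 1 was at 85.16, with the next soft library at 93.80. At ITGB4 site 3, a promoter site of SAP30BP, D2 soft replicate 2 was at 75.72, with the next soft library at 39.32.

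At ITGB6 site 9 both stiff libraries were above both soft libraries on day 2 and both were below on day 4, and the interaction was -1.76 normal scores (SE 0.67, adjusted p = 0.920 in limma). It did not pass the test. By ranks among the sites in every library, ITGB3 site 9 and ITGB8 site 1 also changed order between the days. Their interactions were 0.83 (SE 0.67) and -1.01 (SE 0.67), and neither was called.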

How the results depend on the processing

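Presence of a peak depends on depth, and the 86 sites give no test of their own. With all lists shortened to 29789 peaks there were 55 sites, 18 of them in every library, against 15234 of all 38346 sites. In all stiff and no soft libraries there were 2 (ITGB2 site 4 and ITGB8 site 3). The share of all sites was not worked out for that rule. On day 2, 2 were stiff-only and 2 soft-only, against 4.06% and 3.24% of all sites. On day 4 there were 2 and 0, against 2.996% and 2.81%. Windows of 10 kb gave 50 sites, 18 in every library and 3 stiff-only on day 4. With ranks among the sites in every library, chosen after seeing the data, stiff stood wholly above soft at 1 site over both days in place of 3, and soft above stiff at 3 on day 2 in place of 1. With a summit required in the core, 1 site was soft-only on day 2.

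Leaving out 1 library gave 82 to 86 sites, 32 to 52 in every library (52 without D2 soft replicate 1), 0 to 1 in all stiff and no soft libraries, 5 to 30 stiff-only and 0 to 3 soft-only on day 2, 4 to 10 stiff-only and 0 to 3 soft-only on day 4, and 4 to 6 genes with a promoter peak in every library. Without D2 soft replicate 2 the stiff-only number for day 2 was 30. For the stiff-only and soft-only counts with a library left out, no share of all sites was worked out.

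In limma no alternative called any of the beta integrin sites. Over all sites, stiff against soft had 2 calls, 1 with lists of equal length and 0 to 90 without 1 library. Day 2 had 1 call, 2 with all sites and 0 with ranks of −log10 p, libraries of 1 day, lists of equal length or q up to 0.01, and 0 to 296 without 1 library. Day 4 had 2 calls, 1 with lists of equal length, 0 with ranks of −log10 p or all sites, and 0 to 6 without 1 library. The interaction had 3 with all sites, and day 4 against day 2 had 1 with all sites and 0 to 56 without 1 library. The highest of these numbers came without D2 soft replicate 2. The cause was not tested.

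The promoter difference of ITGB3 was 8.47 with ranks of −log10 p, and that of ITGB5 was -4.18 with lists of equal length. Over all alternatives the differences ranged from -4.81 to 9.40 points for ITGB1, -5.51 to 15.0 for ITGB2, -0.76 to 8.47 for ITGB3, -4.18 to 0.66 for ITGB5, -0.59 to 5.27 for ITGB7 and 9.29 to 20.5 for ITGB8.

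Deviations of replicate 1 from the group means correlated by -0.041 to 0.084 between groups. This cannot tell whether any libraries shared a culture or a day. With a replicate block 0 of the beta integrin sites were called, and over all sites 2, 1, 2, 0 and 0 in the 5 contrasts. The promoter difference of ITGB8 was 16.3 with the block, with an SD of 20.8 over the pairs in place of 10.9. The block uses the numbers in the sample titles, which differ from those inside the peak names for D2 stiff, D4 soft and D4 stiff libraries.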
